A study of Mus musculus with 8 samples.

Results

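The inflammatory cytokines followed in the injured mouse kidney, leaving out interleukin 1 itself, were Tnf, Il6, Il10, Il12b, Il16, Il23a, Il36g, Osm, Csf1 and Lif. They were picked by name as cytokine signals of injured kidney and make up 10 of the 57010 genes in the deposited table. All 10 were measured. Mice underwent ischemia-reperfusion injury of a single kidney (unilateral IRI), a clamp on its vessels followed by release, and received either entospletinib, an inhibitor of spleen tyrosine kinase (SYK), or the solvent DMSO (vehicle). Leukocyte-enriched kidney suspensions were profiled by single-cell RNA-seq at day 1, 7 or 14, and the comparisons address how each cytokine message stood after injury and with the drug.

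There were 7 conditions. All mice were male C57BL/6 by the study's methods. Control was the untouched kidney of mice without surgery. Vehicle at days 1, 7 and 14 was IRI with DMSO. Entospletinib at days 1, 7 and 14 was IRI with the drug, given into the peritoneum before injury in all of them, with no further dose in the day 1 mice, then daily up to day 7 and every 2 days up to day 14. Each condition was 1 pool of 3 mice, so no biological replicate stands behind any value and no test between conditions was possible. The 8 deposited samples were sublibraries, technical portions that each held cells of every condition, and the spread over them measures handling and counting but not differences between mice. The sort removed dead cells and favoured leukocytes by light scatter, so a share of cells is a share of what was sorted, which can differ from the intact organ.

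Cytokines are secreted proteins by which cells of an inflamed tissue instruct each other. Tumour necrosis factor (Tnf) acts early through NF-kappaB, a transcription factor that also switches on the Tnf gene itself. Interleukin 6, oncostatin M and leukemia inhibitory factor form a family whose receptors share the chain gp130 (Il6st) and activate STAT3. Interleukin 12 and interleukin 23 share the subunit encoded by Il12b and differ by their second subunit, which is encoded by Il23a for interleukin 23. Interleukin 10 restrains macrophages, interleukin 36 gamma alerts epithelium and leukocytes, interleukin 16 attracts cells that carry CD4, and colony-stimulating factor 1 (Csf1) keeps macrophages alive and dividing.

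After the study's quality limits, 79389 of 120281 barcodes were kept, with 238942003 counts and 9254 to 10505 cells in each sublibrary. Kept cells per condition ranged from 5806 in vehicle at day 7 to 20571 in vehicle at day 1, and the median count per cell ranged from 960 in entospletinib at day 14 to 2930 in control. The limit on ribosomal protein counts removed 29.0% of barcodes in entospletinib at day 1 against 8.53% in vehicle, and 24.0% against 4.23% at day 14. Of all barcodes, 28653 had a well combination that also occurred in another sublibrary. Among kept cells 8.73% were called doublets, which were kept in the values below. Clustering without the members and without the other cytokine pathway genes gave 34 clusters, of which 31 were named by marker genes and 3, holding 2128 cells, were left unnamed. Clusters were named from markers such as S100a8, S100a9 and Csf3r for neutrophil-like clusters 0 and 3, and C1qa, C1qb and C1qc for most macrophage-like clusters. Cluster 6, which held 76.9% and 83.5% of the neutrophil-like cells of vehicle at days 7 and 14, was named from Mmp9, Il1r2, Csf3r, Hdc, Cxcr2 and Trem1 and had neither S100a8 nor S100a9 among its 100 leading genes. Cluster 7, which held 51.9% of the macrophage-like cells of control, rested on only 3 markers (Slco2b1, Adgre1 and Ms4a7). Doublets were spread unevenly over the conditions. They made up 13.8%, 10.7% and 6.89% of vehicle macrophage-like cells on the 3 days, but 2.12%, 10.8% and 0.197% under entospletinib. For monocyte-like cells the vehicle rates were 12.7%, 10.6% and 7.89%, and the entospletinib rates were 3.57%, 7.73% and 0.606%. Comparisons within these classes were also run without doublets.

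On the mm10 assembly the members lay on 8 chromosomes. Osm (chr11:4236420-4241026, plus strand) and Lif (chr11:4257557-4272514, plus strand) were neighbours, with 16530 bases between the end of the former and the start of the latter. Il12b lay far from them on the same chromosome (chr11:44400063-44414033, plus). The others were Tnf (chr17:35199381-35202007, minus), Il6 (chr5:30013114-30019981, plus), Il10 (chr1:131019845-131024974, plus), Il16 (chr7:83642825-83745726, minus), Il23a (chr10:128296139-128298752, minus), Il36g, listed as Il1f9 in the annotation (chr2:24186476-24193568, plus), and Csf1 (chr3:107741048-107760469, minus). These spans cover exons, introns and untranslated regions of each gene.

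Promoters are shown for 3 members that were lower together with entospletinib at day 7 in the sum of all cells, since Tnf, Il6 and Csf1 are textbook targets of inflammatory transcription factors. The 250 bases before the RefSeq start site (assembly GRCm38.p6) are printed 5′ to 3′ on the strand of the gene, and capitals mark a match on either strand to the kappaB letters (GGG, any 5 bases, then CC) or to the AP-1 letters TGANTCA, with overlapping matches merged.
Tnf: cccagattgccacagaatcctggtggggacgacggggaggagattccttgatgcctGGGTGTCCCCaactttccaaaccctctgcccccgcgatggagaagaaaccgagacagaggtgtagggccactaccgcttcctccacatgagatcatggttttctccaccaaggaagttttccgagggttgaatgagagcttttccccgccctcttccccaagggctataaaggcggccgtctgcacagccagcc
Il6: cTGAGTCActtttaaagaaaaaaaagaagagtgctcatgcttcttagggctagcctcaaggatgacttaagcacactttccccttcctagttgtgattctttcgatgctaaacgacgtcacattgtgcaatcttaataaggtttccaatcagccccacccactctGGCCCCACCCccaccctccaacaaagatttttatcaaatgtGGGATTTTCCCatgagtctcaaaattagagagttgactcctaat
Csf1: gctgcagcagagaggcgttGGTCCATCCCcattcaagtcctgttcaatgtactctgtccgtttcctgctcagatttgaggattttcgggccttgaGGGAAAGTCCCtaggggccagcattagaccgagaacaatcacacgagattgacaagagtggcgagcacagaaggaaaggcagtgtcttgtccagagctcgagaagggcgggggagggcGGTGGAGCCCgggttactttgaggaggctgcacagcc
The Tnf sequence (chr17:35202008-35202257) held 1 kappaB match, the Il6 sequence (chr5:30012864-30013113) held 3 kappaB matches and 1 AP-1 match, and the Csf1 sequence (chr3:107760470-107760719) held 4 kappaB matches. Overlapping matches are counted separately here, so a capital stretch can hold more than 1 match. RefSeq promoter entries were found for 6 of the 10 members, 8 entries in all, of which 6 held a kappaB match and 3 an AP-1 match. The kappaB letters also occurred in 45.8% of the 32851 promoters searched and the AP-1 letters in 6.75%, so a match describes the sequence and does not mark a site in use.

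The first comparison was how much of each cytokine message the whole suspension held after injury. Counts were summed per condition and given as CPM, that is, scaled to a sum of 1e6 counts. A ratio of 2 conditions was taken on the log2 scale relative to the median gene, and a member was called at least 2-fold apart where that relative log2 ratio was 1 or more, or -1 or less, on at least 20 counts. In these sums, fewer cells of a type and less RNA per cell cannot be told apart. The 3 vehicle comparisons share the control pool.

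**Figure D1:**
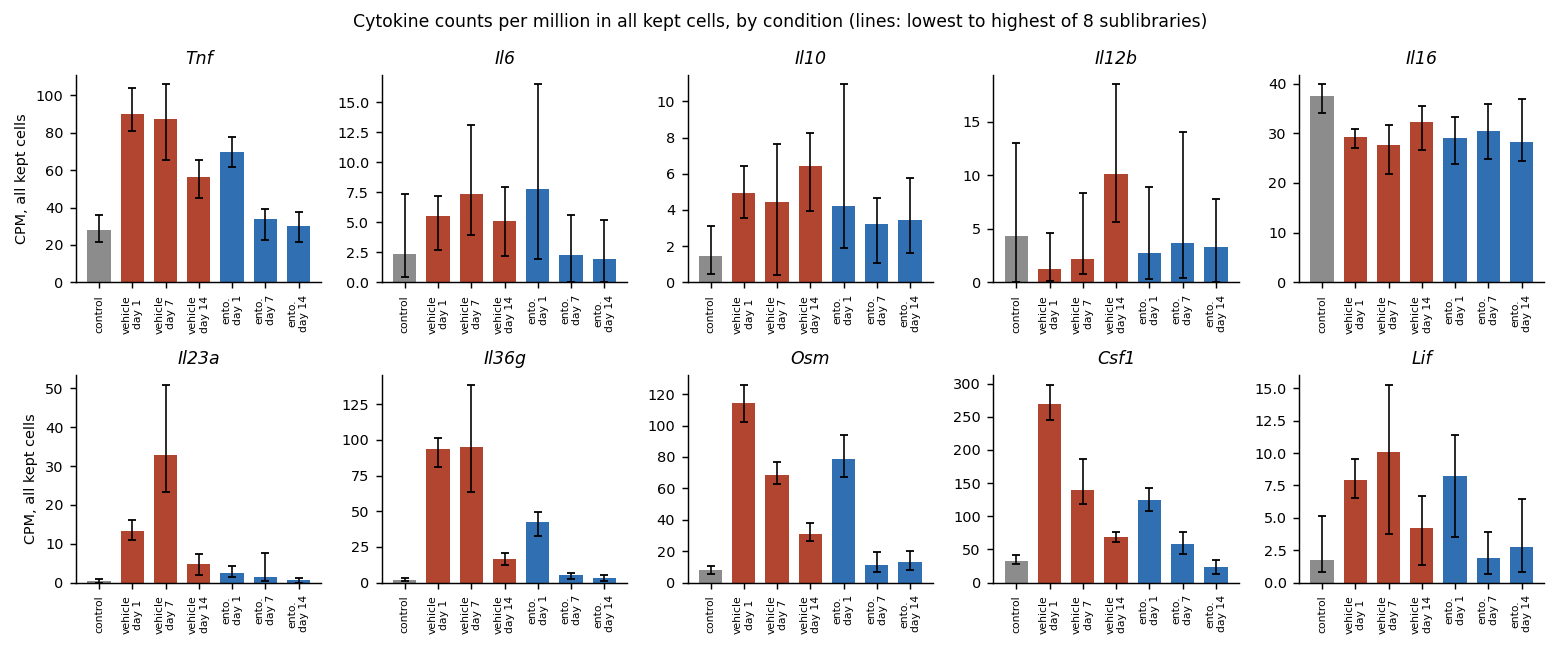
CPM of each cytokine over all kept cells in control (grey), vehicle (red) and entospletinib (blue); bars are the CPM of the pool and lines span the lowest to the highest of 8 sublibraries. Il36g, Osm, Csf1 and Il23a stand far above control in vehicle at days 1 and 7, whereas Il16 lies between 27.5 and 37.4 CPM throughout.

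After IRI with vehicle, 8 members were called higher than control at day 1, 8 at day 7 and 9 at day 14, against 13%, 8.76% and 8.53% of all genes tested. Il36g, the gene of interleukin 36 gamma, was near absent from control at 1.69 CPM (64 counts) and reached 93.8 CPM (6725 counts) at day 1, 94.7 CPM at day 7 and 16.5 CPM at day 14. Its control sublibraries did not exceed 2.99 CPM and its day 1 sublibraries did not fall below 81.1 CPM, so the ranges were far apart. Its relative log2 ratios were 6.06, 6.21 and 3.43 on the 3 days, all in 8 of 8 sublibraries. Il23a, the subunit particular to interleukin 23, had 14 counts in control (0.369 CPM) and stood at 13.4 CPM at day 1, 32.8 CPM at day 7 and 4.71 CPM at day 14. Its relative log2 ratios were 5.41, 6.84 and 3.77, so day 7 held the highest level of this gene.

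Among the gp130 cytokines, Osm, the gene of oncostatin M, was 7.80 CPM in control and 114 CPM at day 1, 68.8 CPM at day 7 and 30.9 CPM at day 14. Its relative log2 ratio declined from 4.14 through 3.55 to 2.13, with no overlap of sublibraries between control and any vehicle day. Lif, the gene of leukemia inhibitory factor, was read at 1.71 CPM in control (65 counts in 41 cells) and at 7.92, 10.1 and 4.19 CPM at days 1, 7 and 14. Il6 was read at 2.37 CPM in control (90 counts in 26 cells) and at 5.50, 7.35 and 5.13 CPM. Both were called higher at all 3 days. The sublibrary ranges of Lif overlapped between control (0.852 to 5.12 CPM) and vehicle at days 7 and 14 (from 3.73 and 1.35 CPM upward), and those of Il6 overlapped between control (0.443 to 7.39 CPM) and each vehicle day, such as day 7 (3.91 to 13.1 CPM). The Il6 call at day 14 (1.25) was lost without doublets, at 0.56.

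Csf1, the growth factor of the macrophage lineage, was 33.0 CPM in control, 269 CPM at day 1 (19283 counts), 139 CPM at day 7 and 68.6 CPM at day 14, and its relative log2 ratios were 3.30, 2.48 and 1.20. The day 14 call was lost with cells of more than 500 genes (0.93) or at least 1000 counts (0.83). Tnf stood at 27.7 CPM in control and at 89.8, 87.2 and 56.2 CPM, with relative log2 ratios of 1.97, 2.06 and 1.16. Control and vehicle sublibraries did not overlap for either gene at any of the 3 days. Il10, the gene of the restraining interleukin 10, had 55 counts in control (1.45 CPM) and stood at 4.94, 4.46 and 6.45 CPM, so that its highest level came at day 14, when the relative log2 ratio was 2.29. Its sublibraries overlapped with control at day 7.

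Il12b and Il16 went another way. Il12b, the shared subunit of interleukins 12 and 23, was 4.30 CPM in control, 1.27 CPM at day 1, 2.21 CPM at day 7 and 10.1 CPM at day 14. It was called lower at day 1 with a relative log2 ratio of -1.48, where 15.7% of genes were called lower, and higher at day 14 with 1.38. Only 23 control cells held the message, and 10 of them held 90.8% of its 163 counts. Without sublibrary 2 the day 1 ratio was -0.76. Il16, made constitutively by lymphocytes and many other leukocytes, was 37.4 CPM in control and between 27.5 and 32.3 CPM in the vehicle conditions, and its relative log2 ratios of -0.076, -0.030 and -0.070 were the smallest of the 10 members at each day.

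The second comparison was entospletinib against vehicle at the same day. In all cells, 3 members were called lower at day 1, 7 at day 7 and 8 at day 14, against 4.63%, 7.17% and 7.6% of all genes, and no member was called higher. The median relative log2 ratio of the 10 members was -0.41, -1.99 and -1.52, where that of all genes is 0 by construction. The shift of the median gene itself was 0.12, 0.46 and 0.23 on the log2 scale.

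Il23a and Il36g differed at all 3 days. Il23a was 2.50 CPM with entospletinib against 13.4 CPM with vehicle at day 1, 1.32 against 32.8 CPM at day 7 and 0.591 (7 counts) against 4.71 CPM at day 14. Its relative log2 ratios were -2.53, -5.08 and -3.13, and the highest of the entospletinib sublibraries at day 7 (7.49 CPM) lay below the lowest of the vehicle sublibraries (23.3 CPM). Il36g was 42.4 against 93.8 CPM, 5.19 against 94.7 CPM and 3.04 against 16.5 CPM. Its relative log2 ratios were -1.26, -4.65 and -2.65, each in 8 of 8 sublibraries and without overlap of the sublibrary ranges.

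Csf1 was the other member called lower at each day. It was 124 against 269 CPM at day 1, 58.8 against 139 CPM at day 7 and 23.1 against 68.6 CPM at day 14, and its relative log2 ratios of -1.23, -1.70 and -1.80 were seen in 8 of 8 sublibraries. Osm was 79.0 against 114 CPM at day 1 with a ratio of -0.65, which was not called. It was 11.2 against 68.8 CPM at day 7 and 13.3 against 30.9 CPM at day 14, with ratios of -3.09 and -1.44. The sublibraries of Osm did not overlap at any day.

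Tnf followed Osm in this respect. It was 69.5 against 89.8 CPM at day 1 (relative log2 ratio -0.49, not called), 33.8 against 87.2 CPM at day 7 (-1.83) and 30.1 against 56.2 CPM at day 14 (-1.12). At days 7 and 14 it stood near the 27.7 CPM of control. Lif was 8.21 against 7.92 CPM at day 1, 1.91 against 10.1 CPM at day 7 (-2.85, called) and 2.79 against 4.19 CPM at day 14 (-0.80, not called). Il6 was 7.78 against 5.50 CPM at day 1 (0.38, not called), 2.28 against 7.35 CPM at day 7 (-2.15) and 1.94 against 5.13 CPM at day 14 (-1.60). The sublibrary ranges of entospletinib and vehicle overlapped for Lif at day 7 and for Il6 at days 7 and 14.

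Il10 was called lower only at day 14, at 3.46 against 6.45 CPM (-1.11), and stood at -0.33 and -0.93 at days 1 and 7. Il12b was 3.29 against 10.1 CPM at day 14, with a ratio of -1.83, and was not called at days 1 and 7 (0.99 and 0.25). Its SD over sublibraries at day 14 was 2.22 on the log2 scale, larger than the difference itself. The day 14 sublibrary ranges of Il10 and of Il12b overlapped between entospletinib and vehicle. Il16 was not called at any day, with ratios of -0.13, -0.32 and -0.42. With plain CPM in place of the median gene, the day 14 ratios of Tnf and Il10 were -0.90 and -0.88 and fell short of the call, as did Il10 without sublibrary 7 (-0.98).

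The sums over all cells rest on which cells hold each message, so levels were next read by cell class over all conditions. Sums over conditions weight each condition by its cells of the class. Neutrophil-like cells (13822 cells) read 1123 CPM of Csf1, 448 CPM of Il36g, 274 CPM of Osm, 246 CPM of Tnf and 77.2 CPM of Il23a. For Csf1, Il36g and Osm they read above macrophage-like and monocyte-like cells in each of the 7 conditions. For Tnf the order differed by condition, since neutrophil-like cells read 228 against 180 CPM in macrophage-like cells in vehicle at day 1, but 142 against 147 CPM with entospletinib at day 1 and 1 count against 52.3 CPM in control. Macrophage-like cells (23740 cells) read 13.2 CPM of Csf1 and 77.8 CPM of Tnf. Monocyte-like cells (11932 cells) read 94.4 CPM of Osm, 41.4 CPM of Tnf and 13.7 CPM of Lif. For comparison, proximal tubule-like cells, which are no leukocytes but can make Csf1 after injury, read 14.3 CPM of Csf1, 3.4 CPM of Il36g, 5.5 CPM of Osm and 9.7 CPM of Tnf.

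**Figure D2:**
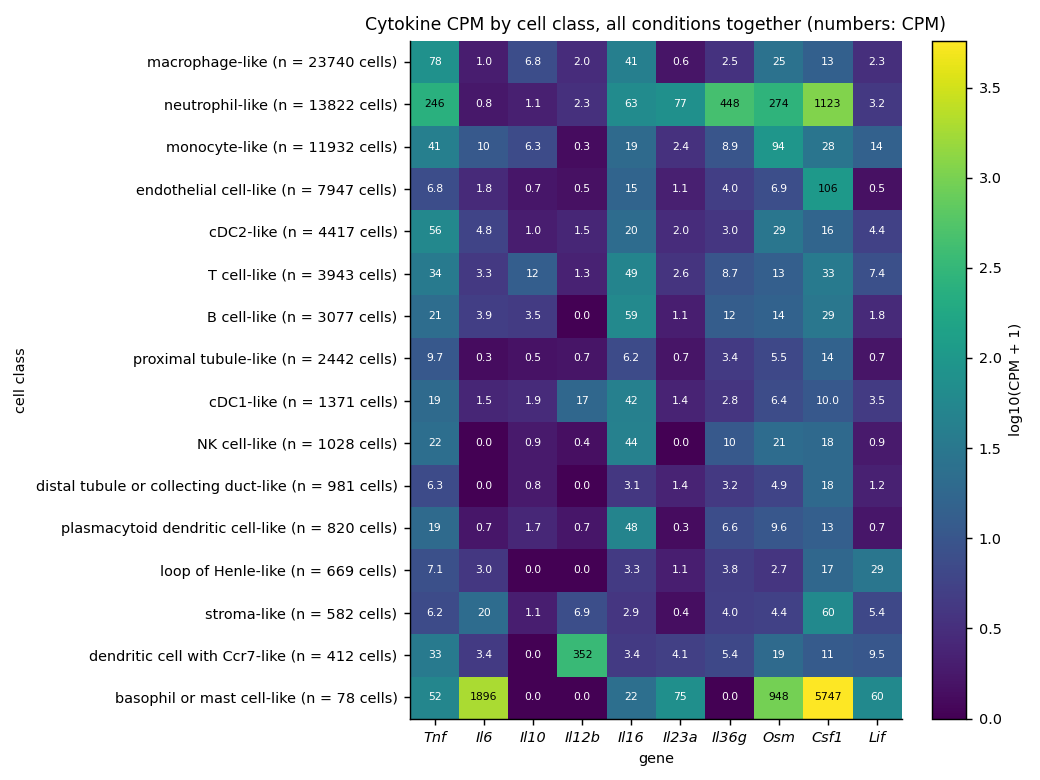
CPM of each cytokine (columns) in each cell class (rows) over all conditions, coloured by log10(CPM + 1), with the CPM printed in each cell and the number of cells beside the class name. Csf1, Il36g, Osm, Tnf and Il23a are high in neutrophil-like cells, Il12b in dendritic cells with Ccr7 and Il6 in the 78 basophil or mast cell-like cells.

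Rarer classes held other members. The 78 basophil or mast cell-like cells read 1896 CPM of Il6, 5747 CPM of Csf1 and 948 CPM of Osm. Dendritic cell with Ccr7-like cells, the migrating dendritic cells that prime T cells, read 352 CPM of Il12b, and 10 of these 412 cells held 52.5% of that class's Il12b counts. T cell-like cells read 12.2 CPM of Il10, and loop of Henle-like cells read 29.1 CPM of Lif, of which 10 cells held 60.4%. Il16 was spread over B cell-like (58.6 CPM), neutrophil-like (63.3 CPM), T cell-like (49.1 CPM), plasmacytoid dendritic cell-like (47.9 CPM), NK cell-like (44.4 CPM), cDC1-like (42.2 CPM) and macrophage-like cells (40.9 CPM). Endothelial cell-like cells read 106 CPM and stroma-like cells 60.3 CPM of Csf1.

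Shares of cells with at least 1 count were compared after every cell was thinned to 500 counts. For Csf1 the thinned share was 30.0% of neutrophil-like cells (48.3% unthinned), 4.62% of endothelial cell-like cells (20.1%) and 0.821% of proximal tubule-like cells. For Il36g it was 15.3% of neutrophil-like cells (29.7%) against 0.082% of proximal tubule-like cells. Osm was found in 10.9% of neutrophil-like and 3.63% of monocyte-like cells, against 0.37% of proximal tubule-like cells. Tnf was found in 9.87% of neutrophil-like and 3.32% of macrophage-like cells, against 0.287%.

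The share of each class and its contribution to the sums both differed between conditions. Neutrophil-like cells were 0.604% of kept cells in control, 37.9%, 29.6% and 11.7% on the 3 days of vehicle, and 21.6%, 1.75% and 0.455% on those of entospletinib. They held 86.2% of the Csf1 counts in vehicle at day 1 but 8.55% in control, where endothelial cell-like cells held 64.1%. With entospletinib at day 7, neutrophil-like cells held 34.0% and endothelial cell-like cells 36.7% of the Csf1 counts. They also held 90.3% of Il36g and 87.9% of Il23a in vehicle at day 1, and 90.9% and 87.9% at day 7.

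**Figure D3:**
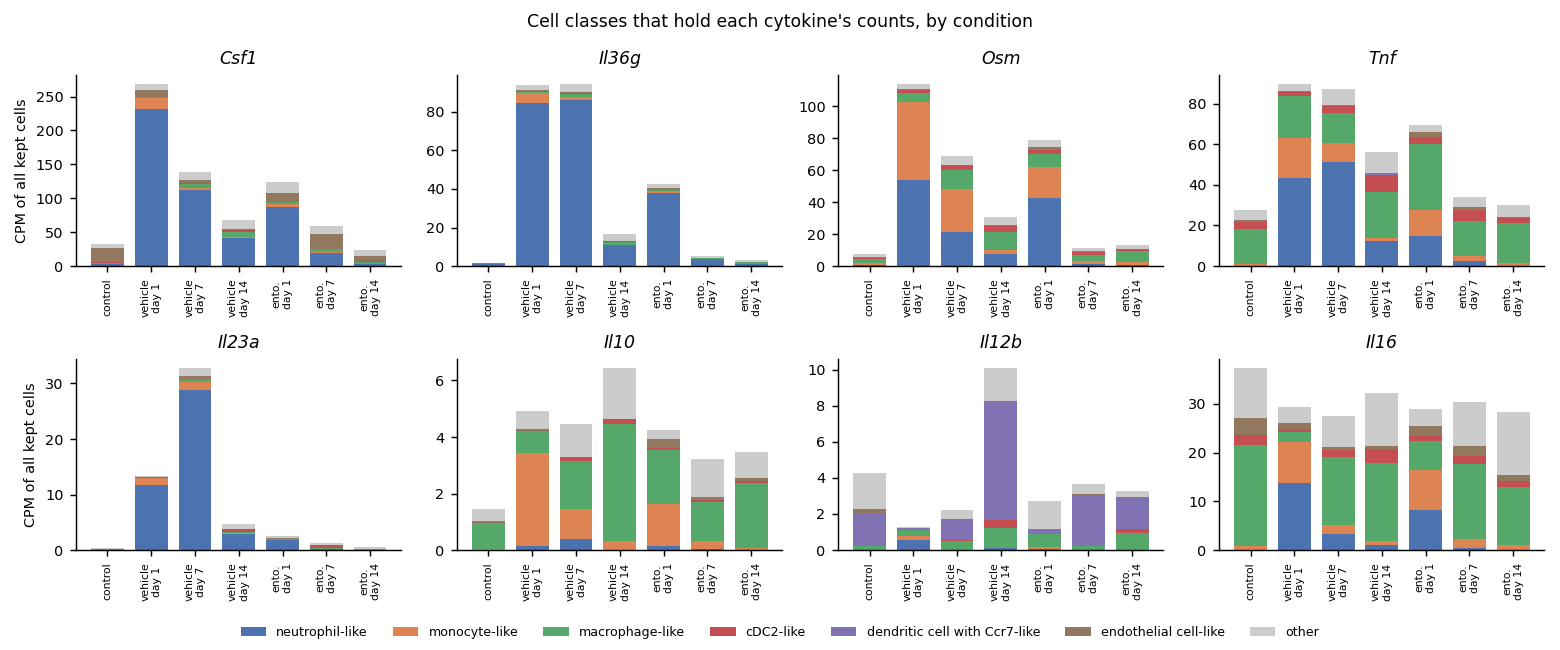
CPM of all kept cells contributed by each cell class (stacked colours) for 8 cytokines in the 7 conditions. The blue share of neutrophil-like cells makes up most of Csf1, Il36g and Il23a in vehicle at days 1 and 7, whereas Tnf, Osm and Il10 are divided among neutrophil-like, monocyte-like and macrophage-like cells.

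Tnf was divided more evenly. Macrophage-like cells held 62.3% of its counts in control, 23.1% in vehicle at day 1, 16.6% at day 7 and 40.6% at day 14, whereas neutrophil-like cells held 0.0951%, 48.3%, 58.6% and 21.9%. Osm came from neutrophil-like cells (47.0%) and monocyte-like cells (43.0%) in vehicle at day 1 and from macrophage-like cells (37.1%) at day 14. Il6 and Lif were mainly monocyte-like in vehicle at day 1 (78.4% and 74.6%), and the basophil or mast cell-like cells held 58.7% of Il6 with entospletinib at day 1. Il10 moved from monocyte-like cells at day 1 of vehicle (66.1%) to macrophage-like cells at day 14 (64.0%).

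The difference between entospletinib and vehicle was then recomputed with 1 term held fixed, either by giving the vehicle levels of each class the class shares of entospletinib or by the reverse. At day 7, the change in shares alone gave log2 ratios of CPM of -1.28 for Tnf, -2.63 for Il36g, -1.22 for Osm, -2.26 for Il23a and -1.45 for Csf1. The change in levels within classes alone gave -0.28, -0.93, -1.19, -3.24 and 1.12. The 2 values for Csf1 had opposite signs. The value for levels of Il23a rests on 3 neutrophil-like counts with entospletinib. At day 1, shares alone gave -0.56 and levels alone -0.58 for Csf1, against -0.74 and -1.85 for Il23a. These values are arithmetic on 1 pool a condition, and levels within a class also move where its cells shift between clusters, as neutrophil-like cells did at days 1 and 7.

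Within neutrophil-like cells, entospletinib was compared with vehicle on 2154 against 7793 cells at day 1, 117 against 1720 at day 7 and 42 against 1932 at day 14. Among the members with at least 20 counts, 2 of 8, 1 of 6 and 1 of 6 were called lower, against 5.2%, 17.3% and 11% of genes. Il23a was 16.6 CPM (95% counting interval 12.1 to 22.3) against 61.9 CPM (57.8 to 66.2) at day 1, a relative log2 ratio of -1.87 in 8 of 8 sublibraries. At day 7 it had 3 counts with entospletinib against 589 with vehicle. The cells lay in different clusters at day 1 too, since cluster 3 held 47.2% of the vehicle and 14.6% of the entospletinib cells, and cluster 0 held 43.2% and 70.8%. Within clusters Il23a was 61.1 (26 counts) against 110 CPM in cluster 3, 47.7 (13 counts) against 87.7 CPM in cluster 6 and 2.56 (5 counts) against 3.84 CPM in cluster 0, each less than 2-fold apart in plain CPM. The other call at day 1 concerned Il12b, of which 1 vehicle cell held 42 counts, and it turned direction without sublibrary 1. The day 14 call was Tnf, on 1 count in 42 cells against 614 counts, a ratio of -2.38 with a counting interval of -8.27 to -0.48. At that day Csf1 had 28 against 2043 counts (0.13), Il36g 11 against 554 (0.71) and Osm 7 against 378 (0.64).

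Csf1 in neutrophil-like cells differed in direction between days. It was 830 CPM (796 to 866) with entospletinib against 1217 CPM (1199 to 1236) at day 1, a relative log2 ratio of -0.54 that was not called. At day 7 it was 2267 CPM (2060 to 2490, 438 counts in 117 cells) against 904 CPM (868 to 942), and the ratio of 1.37 was called higher, where 11.3% of genes were. At this day 85 of the 117 entospletinib cells held the message, and the thinned share was 46.2% against 24.5%. Neutrophil-like cells of the 2 conditions lay in different clusters, since cluster 6 held 76.9% of the vehicle cells at day 7 and 36.8% of the entospletinib cells. The level was higher in each of the 3 clusters, at 2162 against 539 CPM in cluster 0, 2525 against 862 CPM in cluster 3 and 2192 against 950 CPM in cluster 6. With each cell assigned on its own the ratio was 0.91 and not called.

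Il36g, Tnf and Osm in neutrophil-like cells were not called at days 1 and 7. Il36g was 359 against 445 CPM at day 1 and 388 (75 counts) against 696 CPM at day 7, with ratios of -0.29 and -0.79. Tnf was 142 against 228 CPM at day 1 and 264 (51 counts) against 414 CPM at day 7, with ratios of -0.67 and -0.59. Osm was 403 against 282 CPM at day 1 (0.53, in 8 of 8 sublibraries) and 124 (24 counts) against 175 CPM at day 7 (-0.42). At day 1 the Osm ratio was thus above 0 in neutrophil-like cells and below 0 in the sum of all cells. Within clusters at day 1, Osm was 480 against 357 CPM in cluster 0 but 198 against 220 CPM in cluster 3, and Tnf was 90.6 against 65.1 CPM in cluster 0 but 329 against 367 CPM in cluster 3. Il36g there was 325 against 347 CPM and 588 against 552 CPM, and the counting intervals overlapped in each of these pairs except Osm and Tnf in cluster 0.

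Control held only 64 neutrophil-like cells, so vehicle against control was read there with few counts. Of the members, 2 were called higher at each day, against 12.7%, 21% and 20.8% of genes, and 1 was called lower at each day, against 30.8%, 19% and 17.1%. The higher calls were Tnf and Il23a, which had 1 count each in control and stood at 228 and 61.9 CPM at day 1. The lower calls were Lif at day 1, on 26 counts against 1, and Osm at days 7 and 14, at 175 and 190 against 386 CPM (33 counts), with ratios of -1.36 and -1.40. Osm at day 7 fell short of the call with 2 counts added (-0.96) or with each cell assigned on its own (-0.73). At day 14 it fell short with each cell assigned on its own (-0.90). The cells also lay in different clusters. Cluster 0 held 71.9% of control cells but 4.01% and 8.02% in vehicle at days 7 and 14, and cluster 6 held 17.2% against 76.9% and 83.5%. Csf1 was 1253 CPM in control (107 counts, 1027 to 1514) and 1217 CPM at day 1, a relative log2 ratio of 0.014, and Il36g was 422 CPM (36 counts, 295 to 584) and 445 CPM. The counting intervals of both genes in control thus held the day 1 level, whereas in the sums over all cells Csf1 stood at 269 against 33.0 CPM and Il36g at 93.8 against 1.69 CPM.

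Within macrophage-like cells, vehicle was first set against control. Of the members, 5, 5 and 7 were called higher at days 1, 7 and 14, against 8.19%, 5.01% and 6.53% of genes. Tnf was 52.3 CPM in control (48.3 to 56.4), 180 CPM at day 1 (171 to 190), 42.5 CPM at day 7 and 57.3 CPM at day 14. Only day 1 stood above the spread of the control sublibraries (36.9 to 64.9 CPM), with a relative log2 ratio of 1.63. Different clusters held these cells, since cluster 9 made up 79.3% of macrophage-like cells in vehicle at day 1 and cluster 7 made up 51.9% in control.

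Osm and Il10 stayed higher for longer. Osm was 7.90 CPM in control macrophage-like cells and 46.2, 34.6 and 28.8 CPM with vehicle, with relative log2 ratios of 2.39, 2.40 and 1.93. Il10 was 2.79 CPM (35 counts) in control and 6.89, 4.90 and 10.4 CPM, with ratios of 1.14, 1.09 and 1.94. The Il10 calls at days 1 and 7 were lost when sublibrary 4 was left out, at 0.72 and 0.66. With plain CPM the day 7 calls of Il10 (0.81) and of Lif (1.02, then 0.75) were lost. The day 1 call of Il12b (1.97) was lost without sublibrary 4 (0.99). Il16 was 62.7 CPM in control and 17.4 CPM at day 1, a ratio of -2.0, where 11.1% of genes were called lower, and it was 40.5 and 40.2 CPM at days 7 and 14. Macrophage-like cells lay in different clusters at days 7 and 14 too. Cluster 11 held 3.78% of them in control and 25.2% and 28.6% in vehicle at these days. Cluster 7 held 51.9% in control and 19.1% and 9.51% in vehicle. The part of this shift in the values was not tested.

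Entospletinib against vehicle in macrophage-like cells gave 0 of 8, 2 of 7 and 1 of 9 measured members called lower, against 1.35%, 2.8% and 4.68% of genes. Tnf was 147 against 180 CPM at day 1, 52.9 against 42.5 CPM at day 7 and 57.0 against 57.3 CPM at day 14, and none of the ratios of -0.23, -0.019 and -0.15 was called. Osm at day 7 was the clearest difference, at 10.7 CPM (8.47 to 13.4) against 34.6 CPM (30.3 to 39.2), with a ratio of -2.02 in 8 of 8 sublibraries. The sublibraries ranged from 5.79 to 14.9 CPM and from 15.9 to 50.1 CPM and did not overlap. Osm was also lower in the clusters that held most of these cells, at 5.12 against 17.8 CPM in cluster 7, 8.60 against 16.6 CPM in cluster 10 and 40.3 against 70.0 CPM in cluster 11. The other day 7 call was Il36g with 10 against 27 counts, or 1.37 against 3.89 CPM, where tubule-like cells read 3.19 and 1.09 CPM. At day 14 Csf1 was 9.82 against 19.3 CPM (-1.10), which was not called without doublets (-0.82).

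**Figure D4:**
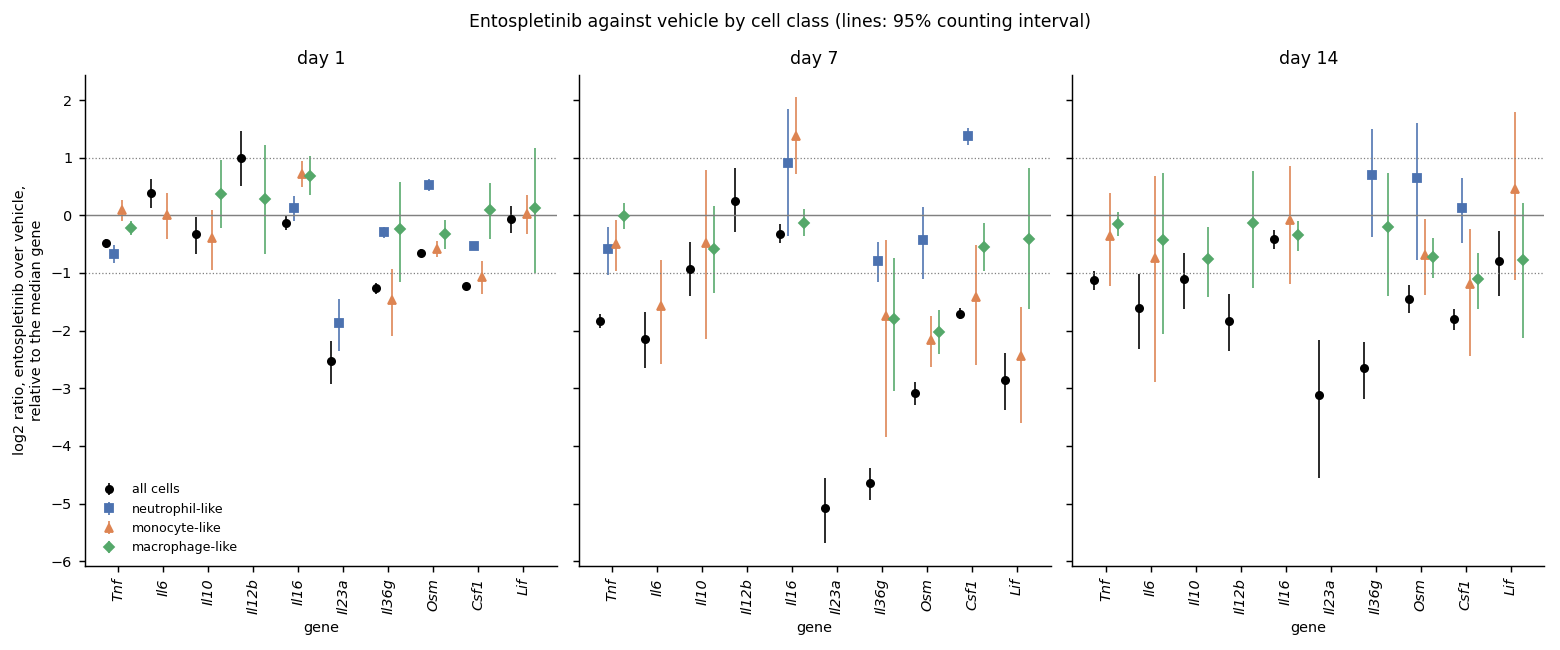
Log2 ratio of entospletinib over vehicle relative to the median gene, for each cytokine in all cells, neutrophil-like, monocyte-like and macrophage-like cells at days 1, 7 and 14; lines are 95% counting intervals, dotted lines mark 2-fold, and values with few counts are not drawn. At day 7 Tnf is at -1.83 in all cells and near 0 in macrophage-like cells, Osm is at -2 or below in all cells, monocyte-like and macrophage-like cells, and Csf1 is at 1.37 in neutrophil-like cells.

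These counts for macrophage-like cells depended on how the class was drawn. With each cell assigned on its own, 6 members were lower at day 7 and 4 at day 14, and with fewer, larger clusters 5 and 3. Cluster 11, led by Apoe and Cd83, held 25.2% of macrophage-like cells in vehicle at day 7 and 9.84% with entospletinib, and cluster 7 held 19.1% and 35.4%. At day 14, cluster 2 held 49.5% with entospletinib and 19.8% with vehicle. Neutrophil markers moved with some of these values, since their summed CPM in macrophage-like cells at day 7 was 195 for entospletinib against 261 for vehicle, and at day 14 it was 232 against 373. Their part in the result was not tested.

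In monocyte-like cells, 4, 7 and 2 members were called higher with vehicle than control at days 1, 7 and 14, against 10.1%, 11.2% and 5.46% of genes, with 349 control cells. Osm was 36.3 CPM in control (44 counts) and 104 CPM at day 1, 137 CPM at day 7 and 55.1 CPM at day 14, and the first 2 were called with ratios of 1.38 and 2.15. Lif was 5.77 CPM (7 counts) in control and 12.5, 36.0 and 7.13 CPM, with a ratio of 2.79 at day 7. Il6 had 5 counts in control and stood at 9.11 CPM at day 1 and 25.2 CPM at day 7 (99 counts), where single sublibraries ranged from 5.48 to 60.8 CPM. The cells of these conditions lay in different clusters, since cluster 13 held 0.86% of monocyte-like cells in control, 32.7% in vehicle at day 1 and 59.8% at day 7, and cluster 12 held 45.6%, 20.9% and 6.76%. Within cluster 5, Osm was 42.9 CPM in control (27 counts), 65.3 CPM at day 1 and 73.2 CPM at day 7, as plain CPM that was not set relative to the median gene. Without doublets, Il36g (-0.036) and Csf1 (-0.092) at day 1 and Il23a (-0.11), Il36g (0.59), Il10 (0.82) and Csf1 (0.064) at day 7 fell short of the call. The calls at day 14 were Csf1 (1.68) and Il6 (1.23). Csf1 fell short without doublets (0.85), and with each cell assigned on its own both did, at 0.87 and 0.96.

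With entospletinib, 3 of 9, 6 of 9 and 1 of 6 measured members were called lower in monocyte-like cells, against 3.54%, 9.4% and 4.81% of genes. Osm was 64.9 against 104 CPM at day 1 (-0.58, not called) and 38.9 CPM (28.7 to 51.5) against 137 CPM (126 to 150) at day 7, a ratio of -2.16 in 8 of 8 sublibraries. Lif at day 7 was 8.10 CPM (10 counts) against 36.0 CPM (141 counts), a ratio of -2.44, and Il6 was 10.5 CPM (13 counts) against 25.2 CPM, a ratio of -1.57. Tnf was 41.1 against 41.4 CPM, 45.4 against 50.5 CPM and 25.9 against 31.8 CPM at days 1, 7 and 14, and was not called. Il16 was higher at day 7, at 33.2 against 9.94 CPM (1.38), where 6.65% of genes were called higher.

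Some of the monocyte-like calls rested on cells that were called doublets. Il36g (-1.47), Il23a (-2.34) and Csf1 (-1.07) at day 1 stood at -0.072, -0.87 and 0.14 without them. The day 7 calls also included Il36g (-1.75, 4 against 37 counts), Il23a (-1.66, 3 against 27 counts) and Csf1 (-1.41, 10 against 69 counts), of which Il23a stood at 0.51 and Csf1 at -0.97 without doublets. The day 14 call was Csf1 (-1.18, 9 against 61 counts), which stood at -0.44 without them and at 0.91 with each cell assigned on its own. The summed CPM of neutrophil markers in monocyte-like cells at day 1 was 790 for entospletinib against 1192 for vehicle, where control read 424. Cluster 13, with Fn1 and F13a1 among its leading genes, held 59.8% of monocyte-like cells in vehicle at day 7 and 5.4% with entospletinib. At day 1 it held 32.7% and 10.5%, cluster 17 held 19.6% and 7.34%, and cluster 12 held 20.9% and 45.1%. Within cluster 13 at day 7, Osm was 92.4 CPM (10 counts) with entospletinib against 158 CPM, Il6 46.2 (5 counts) against 31.0 CPM, and Lif had 0 counts in 21 cells against 123 counts in 469 cells. Within cluster 5, Osm was 45.8 against 73.2 CPM, Lif 8.33 (6 counts) against 18.9 CPM and Il6 8.33 (6 counts) against 11.4 CPM.

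Messages of receptors for the members were read by cell class, while receptor protein and response were not measured. In sums over all conditions, neutrophil-like cells stood highest of the classes for Tnfrsf1b, the second receptor of Tnf (1206 CPM), and for Il1rap, the accessory chain used by interleukin 36 (1395 CPM). Csf1r was 673 CPM in macrophage-like and 505 CPM in monocyte-like cells. Osmr, the oncostatin M receptor chain, was 1.3 CPM in macrophage-like, 153 CPM in stroma-like and 128 CPM in endothelial cell-like cells. Il12rb2 was 524 CPM in NK cell-like cells and Il23r 46 CPM in T cell-like cells.

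**Figure D5:**
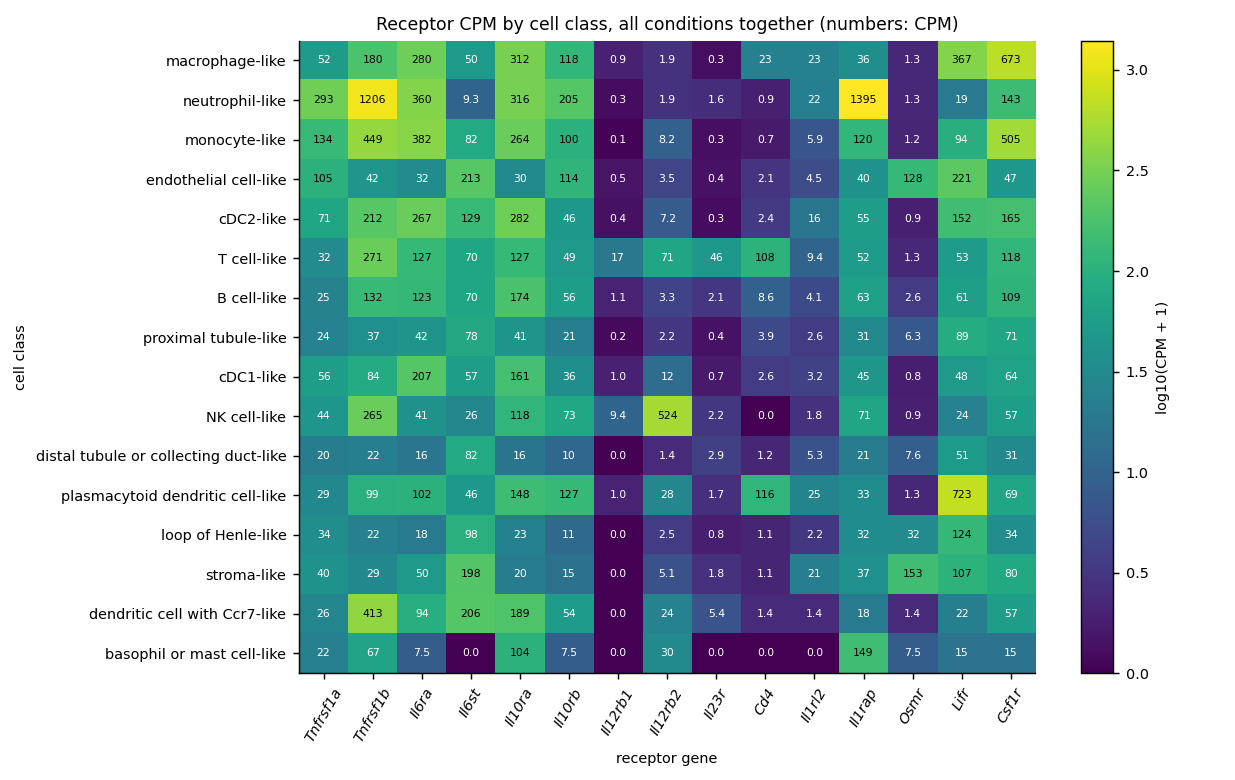
CPM of 15 receptor genes (columns) in each cell class (rows) over all conditions, coloured by log10(CPM + 1) with the CPM printed. Tnfrsf1b and Il1rap are high in neutrophil-like cells, Csf1r in macrophage-like and monocyte-like cells, and Osmr in stroma-like and endothelial cell-like cells.

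In all cells, 3 of 15 receptors were called lower with entospletinib at day 7, against 7.17% of all genes, and 1 higher, with a median relative log2 ratio of -0.56. Il1rap was 41.0 against 157 CPM (-2.40), Tnfrsf1b 125 against 314 CPM (-1.80) and Il1rl2, the ligand-binding chain for interleukin 36, 14.0 against 20.3 CPM (-1.0). Osmr was higher at 20.5 against 5.74 CPM (1.37), where 13.2% of genes were called higher. At day 7 neutrophil-like cells were 1.75% of kept cells with entospletinib and 29.6% with vehicle, endothelial cell-like cells 21.4% and 3.75%, and stroma-like cells 1.75% and 0.465%. The part of these shares in the receptor values was not tested.

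Genes that end or process cytokine signals were read next. Of 13 genes of message decay, processing and feedback, 6 were called lower at day 7, against 7.17% of all genes, and 1 higher, against 13.2% (median -0.76). Socs3, the STAT3 target that blocks gp130 signalling, was 33.1 against 105 CPM (-2.13), Nfkbia, the inhibitor that NF-kappaB induces, 190 against 492 CPM (-1.84), and Tnfaip3, which stops Tnf signalling, 117 against 289 CPM (-1.76). Timp3, an inhibitor of the protease that sheds Tnf, was higher at 598 against 123 CPM (1.82). In macrophage-like cells alone Socs3 stood at -1.33 at day 7 and in monocyte-like cells at -1.27, and at 0.39 and 0.24 at day 1.

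Of 12 STAT3 and NF-kappaB genes, 5 were called lower at day 7 (median -0.93), against 7.17% of all genes, led by Pim1 (161 against 469 CPM, -2.0), Bcl3 (-1.59), Nfkb1 (-1.27) and Jak2 (-1.24). Vehicle against control gave 7 of these 12 higher at day 1, against 13% of all genes, with Pim1 at 2.67, Bcl3 at 2.39, Stat3 at 1.68 and Jak2 at 1.58. Among 13 partner subunits, related ligands and antagonists, 8 were measured at day 7, of which 1 was called lower and 2 were called higher, against the same 7.17% and 13.2% (median -0.40), including Il34, the other ligand of the Csf1 receptor, at 16.7 against 5.39 CPM (1.16). Il12a, which encodes the second subunit of interleukin 12, had 99 counts in vehicle at day 1 and 21 in control.

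Early response genes, which tissue dissociation can also induce, were read beside the members. Of 11, 4 were called lower with entospletinib at day 7 (median -0.48), where 7.17% of all genes were, namely Dusp1 (-1.50), Egr1 (-1.46), Junb (-1.40) and Fosb (-1.09). Their summed CPM was 1521 in control. It was 2785, 2348 and 2716 on the 3 days of vehicle and 2159, 1969 and 2014 on those of entospletinib. In macrophage-like cells the sum was 2202 in control and 3774 in vehicle at day 1, the condition in which Tnf was also highest there. Their part in the cytokine values was not tested.

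Genes with the most similar pattern were found over 83 sums of 1 class in 1 condition, among 13190 genes, as a description in which sums of one class share its markers. Il36g was closest to Mmp9 (Pearson r = 0.954) and Cxcr2 (0.949), Tnf to Bcl2a1b (0.879) and Il1b (0.856), Osm to Smox (0.920) and Ccr1 (0.912), and Csf1 to Phospho1 (0.890). Il16 was closest to Arhgap15 (0.897) and Il12b to Cacnb3 (0.802), a marker used to name the dendritic cells with Ccr7. The closest genes of Il6 (Kif1a, 0.571), Il10 (Areg, 0.632) and Lif (Rrp1b, 0.573) were less alike.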

How the data were processed

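The deposited file held raw counts per gene and cell, which the authors made with the Parse Biosciences pipeline on reads aligned to mm10, and a cell table gave condition and sublibrary. Cells were kept above 300 genes, below 20000 counts, below 25% mitochondrial and below 1.5% ribosomal protein counts, and genes found in at least 5 cells, limits taken from the study's methods. Kept cells were scaled, reduced to 40 components over 4000 variable genes and clustered by Leiden (resolution 2, igraph 0.11.9, leidenalg 0.10.2), leaving out members and listed genes. Clusters were named "-like" from marker lists. Doublets were scored against simulated pairs and kept.

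Counts were summed per condition and class as CPM (sums scaled to 1e6), with exact Poisson 95% intervals that cover counting error only. Log2 ratios had 0.5 counts added to both sums and were taken relative to the median of genes with at least 50 counts. A call needed 20 counts. With 1 pool a condition no p-value was computed. Shares of cells used cells thinned to 500 counts, and 0 counts in a sum were read against a floor of 3 counts. Gene positions came from GENCODE M21 (52029 of 57010 IDs matched). All 10 members were named, and from each gene list the 4 genes with the largest ratio on at least 50 counts, plus similar genes, of which 3 a member were computed. A gene named outside this rule, such as Csf1r, Il12a or Stat3 where it did not lead, was chosen after its values were seen. Members and lists were chosen with earlier results of these data known. The script was tested on simulated data. Alternatives were no ribosomal limit, more than 500 genes or at least 1000 counts per cell, doublets removed, TMM (edgeR 4.0.16, R 4.3.3), plain CPM, 2 counts added, no count minimum, each cell assigned on its own, fewer clusters, and each sublibrary left out. Python 3.11.15, numpy 2.4.6, scipy 1.17.1, pandas 2.3.3 and matplotlib 3.10.9 were used.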

Additional observations from a re-analysis of the deposited data

Results flagged for a closer look

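Groups of 8 sublibraries were checked for 10 members in each of 7 conditions and in all conditions summed. In 10 of these 80 groups, all of single conditions, 1 sublibrary of a member's CPM in all cells stood apart from the other 7. The nominal rate of the rule is about 1 in 20, which need not hold for low counts that sit in few cells. Il12b accounted for 5 of the 10 groups. It was 4.65 CPM in sublibrary 1 of vehicle at day 1 (others up to 1.49), 8.37 in sublibrary 4 of vehicle at day 7 (2.20), 18.5 in sublibrary 3 of vehicle at day 14 (11.3), 8.93 in sublibrary 4 of entospletinib at day 1 (3.54) and 14.0 in sublibrary 8 of entospletinib at day 7 (4.97). Il6 was 7.39 CPM in sublibrary 4 of control (others up to 2.80) and Lif 5.12 CPM in sublibrary 5 of control (1.85). Il10 was 10.9 CPM in sublibrary 1 of entospletinib at day 1 (others up to 5.13), and Il23a was 7.49 CPM on 17 counts in sublibrary 6 of entospletinib at day 7 (1.17). Csf1 was 187 CPM in sublibrary 6 of vehicle at day 7 (others up to 149).

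Csf1 in neutrophil-like cells stood at a relative log2 ratio of -0.54 for entospletinib over vehicle at day 1 and at 1.37 at day 7, each with the same direction in 8 of 8 sublibraries. The difference between the days was not tested, since each condition was 1 pool.

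Barcodes removed by the quality limits also held the members. In removed barcodes the CPM over the 6 injured conditions against control was 18.8 against 5.35 for Tnf, 1.61 against 0.265 for Il6, 1.49 against 0.132 for Il10, 11.2 against 8.52 for Il16 and 1.98 against 0.238 for Il23a. It was 6.76 against 1.01 for Il36g, 14.1 against 2.12 for Osm and 32.0 against 9.45 for Csf1. Il12b was 0.92 against 0.688 CPM, but below control in 4 of the 6 injured conditions, as Il16 was in vehicle at day 1 (7.12 CPM) and Il23a with entospletinib at day 7 (0.178 CPM). Lif was 10.1 against 1.24 CPM, above the 6.29 CPM of kept injured cells, and 10 barcodes held 47.5% of its counts there. These sums join vehicle and entospletinib. At day 1, removed barcodes read 36.7 CPM of Tnf with entospletinib against 13.2 CPM with vehicle. Osm was 21.2 against 14.8 CPM and Csf1 36.8 against 32.0 CPM, whereas kept cells read lower with entospletinib for these genes at day 1. Il36g was lower in removed barcodes too (5.55 against 6.28 CPM). At day 7 removed barcodes read lower with entospletinib for Tnf (8.03 against 31.6 CPM), Osm and Csf1.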

How the results depend on the processing

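In the sums over all cells, the counts of members called stayed within 1.5 times under every alternative run, and with each sublibrary left out they were 3 to 3 at day 1, 7 to 8 at day 7 and 8 to 8 at day 14 for entospletinib. Single calls there were lost for Csf1 in vehicle over control at day 14 with more than 500 genes (0.93) or at least 1000 counts per cell (0.83), and for Il6 in the same comparison without doublets (0.56). For entospletinib at day 14, Tnf (-0.90) and Il10 (-0.88) were lost with plain CPM, which left 6 members. Il10 (-0.98) was also lost without sublibrary 7, where the count stayed at 8, so the members called were not all the same. Il12b in vehicle over control at day 1 was lost without sublibrary 2 (-0.76). In macrophage-like cells the counts called lower with entospletinib moved. Without doublets they were 1 at day 1 and 0 at day 14, with plain CPM 0 at day 14, with no count minimum 4 at day 7 and 2 at day 14, and with each cell assigned on its own 6 at day 7 and 4 at day 14. With fewer clusters, an alternative chosen after seeing the data, they were 5 at day 7 and 3 at day 14. Leaving out single sublibraries gave 0 to 0, 2 to 3 and 0 to 3 at days 1, 7 and 14. The cause was not tested.

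Direction turned for members with few counts or in classes that neutrophil markers reached. Without doublets, monocyte-like Csf1 in entospletinib over vehicle at day 1 was 0.14 and Il23a at day 7 was 0.51, and in vehicle over control Il36g at day 1 was -0.036, Csf1 at day 1 -0.092 and Il23a at day 7 -0.11. With each cell assigned on its own, monocyte-like Csf1 was 0.074 at day 1 and 0.91 at day 14, and macrophage-like Il12b in vehicle over control at day 1 was -0.11. Neutrophil-like Il12b at day 1 was 4.64 without doublets, 8.19 with each cell assigned on its own, 4.72 with fewer clusters and between -2.45 and 4.69 with single sublibraries left out (4.69 without sublibrary 1, in which 1 cell held 42 counts). No paired analysis was possible because each condition was 1 pool and the result comes from no test. Depth limited members with few counts, such as Il23a (14 counts) and Il10 (55 counts) in control, and the 64, 117 and 42 neutrophil-like cells of control and of entospletinib at days 7 and 14.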

Other observations

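T cell-like cells held part of the Il10 message, at 4.21 CPM in control (9 counts), 18.5, 32.9 and 11.6 CPM on the 3 days of vehicle (15, 22 and 61 counts), and 3.13, 33.2 and 3.31 CPM on those of entospletinib (1, 20 and 3 counts). The counts at day 7 came from 5 cells of vehicle and 4 of entospletinib. Endothelial cell-like cells, the main holders of Csf1 in control, read 96.6 CPM of Csf1 there (803 counts), 143, 127 and 71.2 CPM under vehicle (708, 90 and 91 counts) and 90.7, 113 and 69.9 CPM under entospletinib (335, 474 and 90 counts). Their relative log2 ratios for entospletinib over vehicle were -0.58, -0.33 and -0.03, so no day reached 2-fold.

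In cDC2-like cells Osm was higher with vehicle than control at each day, with relative log2 ratios of 1.86, 1.61 and 1.01. Tnf in cDC2-like cells stood at 0.30, 0.67 and -0.36 for entospletinib over vehicle. Csf1 there rested on 9 against 50 counts, 19 against 43 and 5 against 141, with ratios of -1.31, -1.29 and -1.13.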
